A study of Mus musculus with 17 samples.

Results

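The genes described here are 10 surface and secreted molecules through which macrophages and dendritic cells stimulate or restrain T cells. They were taken by their symbols (*Cd80*, *Cd86*, *Cd40*, *Cd274*, *Pdcd1lg2*, *Havcr2*, *Icosl*, *Tnfsf9*, *Lgals9* and *Cd48*) from the 25124 genes that each of the 3 deposited tables lists. All 10 were found in every table and all 10 had values high enough to be tested in every comparison. A T cell needs a second signal beside its antigen receptor. CD80 and CD86 give it through CD28 and are also bound by the inhibitory receptor CTLA4, whereas PD-L1 (encoded by *Cd274*) and PD-L2 (*Pdcd1lg2*) bind the inhibitory receptor PD-1. The set is not made of ligands alone, because CD40 is the receptor through which T cells activate the presenting cell, and TIM-3 (*Havcr2*) is itself an inhibitory receptor that binds galectin-9 (*Lgals9*). Kupffer cells (KCs) are the resident macrophages of the liver sinusoids and meet circulating T cells there.

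RNA-seq was performed on KCs sorted from mouse liver, and the 17 samples fall into 6 groups in 3 tables. TIM4+CD206+ KCs came from 3 samples of tumour-free, untreated liver and 3 samples of liver collected 2 weeks after KPC pancreatic tumour cells were injected into the portal vein. TIM4+CD206high KCs, which stained more strongly for the mannose receptor CD206, came from 3 tumour-free and 3 tumour-bearing samples of the same kind. KCs of 3 *Id3f/f* and 2 *Clec4fCreId3f/f* mice were untreated. Both genotypes carry floxed *Id3* alleles, and Cre is driven by the *Clec4f* gene, which is active in KCs. According to the methods, the gate for the KC subsets removed cells with surface markers of T cells, B cells, NK cells and neutrophils. Strain, age and sex of the animals are not given for these samples in the sources used here, and for the tumour samples nothing says that each came from a separate animal, so that p-values measure the spread between these samples.

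Values are regularized log2 expression, a scale that draws a gene with few reads towards its own mean and so understates how far it differs between groups. The 3 tables were normalized separately, and no test was made across them. The scale does not keep the read depth of a sample. Pearson's correlation across genes between replicates of a group was 0.964 to 0.989 in TIM4+CD206+ KCs, 0.937 to 0.994 in TIM4+CD206high KCs and 0.997 to 0.999 in the *Id3* table. *Id3* was between 12.46 and 12.82 in the *Id3f/f* samples and between 9.82 and 9.83 in the *Clec4fCreId3f/f* samples, a log2 difference of -2.80 (adjusted p = 1.4e-06, limma). *Clec4f* and *Timd4*, which define KCs, were at 13.76 or above in every sample, and the CD206 gene *Mrc1* was at 12.37 to 13.18 in TIM4+CD206+ KCs and at 14.96 to 16.19 in TIM4+CD206high KCs. The genotypes also differed in sex-linked genes. *Xist* had means of 6.36 in *Id3f/f* and 9.80 in *Clec4fCreId3f/f* samples, and *Ddx3y* of 9.44 and 7.0. Sex and genotype therefore cannot be told apart for any gene of this comparison. A total of 3 libraries stood apart from the replicates of their group. The root mean square distance was 0.68 for tumour-free replicate 2 of TIM4+CD206+ KCs and 0.772 and 0.801 for tumour-free replicates 2 and 3 of TIM4+CD206high KCs, against at most 0.52 for the other 14 samples, and values without them are given beside the main results they move.

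Levels of different genes were compared per kb of transcript, within one table. In TIM4+CD206+ KCs of tumour-free liver the order from high to low was *Lgals9*, *Cd48*, *Cd86*, *Cd40*, *Cd274*, *Icosl*, *Cd80*, *Pdcd1lg2*, *Havcr2* and *Tnfsf9*. The log2 level per kb fell from 13.78 ± 0.35 (SD, n = 3) for *Lgals9*, above 98.4% of the genes tested, to 4.81 ± 0.48 (SD, n = 3) for *Tnfsf9*, above 26.5% of them. *Lgals9*, *Cd48* and *Cd86* therefore made the upper end, and the same 3 genes held the first 3 places in each of the 6 groups. The inhibitory ligand pair was unequal, since *Cd274* was at 8.73 ± 0.83 per kb and *Pdcd1lg2* at 6.28 ± 0.39 (SD, n = 3). The costimulatory pair was unequal too, with *Cd86* at 11.34 ± 0.35 and *Cd80* at 6.94 ± 0.02 (SD, n = 3).

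**Figure D1:**
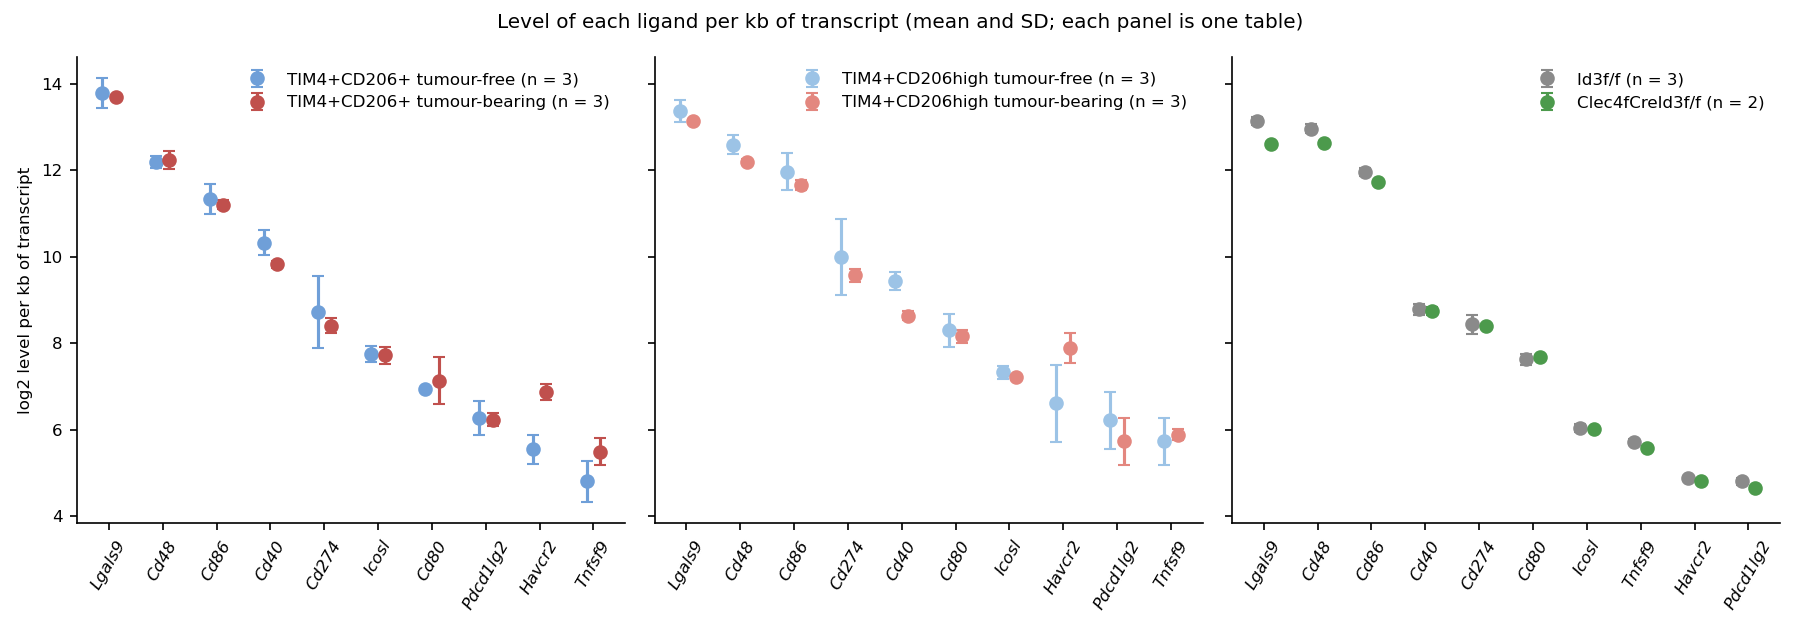
Log2 level per kb of transcript (y axis) of each of the 10 genes (x axis), with the mean as a point and the SD as a bar, in a panel for each table. *Lgals9*, *Cd48* and *Cd86* lie at 11.21 or above in every group, and *Havcr2* stands 1 place higher in the order with tumour than without in both subsets.

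Neighbours in this order did not always separate. In tumour-free TIM4+CD206+ KCs the sample ranges overlapped between *Cd274* and *Icosl* and between *Havcr2* and *Tnfsf9*, and the other neighbours were apart. In TIM4+CD206high KCs of tumour-free liver *Cd274*, at 9.99 ± 0.88 per kb, came before *Cd40*, at 9.44 ± 0.21 (SD, n = 3), but their ranges overlapped. In that group *Cd48* and *Cd86* also overlapped, as did the neighbours from *Icosl* down to *Tnfsf9*. In *Clec4fCreId3f/f* KCs *Cd48*, at 12.63 ± 0.04 per kb, and *Lgals9*, at 12.62 ± 0.03 (SD, n = 2), overlapped, whereas in *Id3f/f* KCs *Lgals9* was at 13.14 ± 0.09 and *Cd48* at 12.96 ± 0.10 (SD, n = 3) with ranges that were apart. The order changed when the length of all exons together was used instead of that of one RefSeq transcript. Neighbours swapped in every group, for example *Cd80* moved below *Pdcd1lg2* in tumour-free TIM4+CD206+ KCs, and in the *Id3* table *Cd48* moved above *Lgals9* in *Id3f/f* KCs and *Tnfsf9* above *Icosl* in both genotypes.

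On the GRCm38.p6 assembly *Cd274* (chr19:29362107-29388095) and *Pdcd1lg2* (chr19:29410919-29472927) are neighbours with 22823 bases between them. *Cd80* (chr16:38457430-38495958) and *Cd86* (chr16:36568956-36666158) share a chromosome at a distance of 1791271 bases, and *Havcr2* (chr11:46454931-46481255) and *Lgals9* (chr11:78962979-78984924) lie 32481723 bases apart. *Cd274* overlaps *Plgrkt* in the annotation and *Tnfsf9* (chr17:57105287-57107758) overlaps *Gm11110*. Both of these partners are listed in the tables, and how reads of the shared stretches were assigned is not given in the sources used here.

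The first question was how these molecules change in KCs when the liver bears tumour. In TIM4+CD206+ KCs, 1 of the 10 genes passed the test, in the direction of higher expression with tumour, and 0 passed as lower in limma, where 1 had an unadjusted p under 0.05 and the share over all genes was 0.998%. Of 13233 genes tested across the table, 3.54% passed in either direction and 2.55% were higher with tumour (adjusted p under 0.05, limma). The median log2 difference over the 10 genes was -0.04, and over all genes tested 0.02. Deviations from the group means correlated at 0.56 between the samples of replicate number 2, and at 0.35 and 0.15 for numbers 1 and 3. Samples of unlike number reached 0.30. Once the replicate number entered as a block, 1026 genes passed instead of 469.

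The gene that rose was *Havcr2*, which encodes TIM-3, an inhibitory receptor of exhausted T cells that macrophages and dendritic cells also carry. It was at 6.62, 7.27 and 7.09 in the tumour-free samples and at 8.41, 8.11 and 8.45 in the tumour-bearing ones. Each tumour-bearing sample lay above each tumour-free one. The means were 7.0 ± 0.34 and 8.32 ± 0.18 (SD, n = 3 each), a log2 difference of 1.33 with a standard error of 0.26 and a 95% interval of 0.73 to 1.93, which is 2.51-fold (adjusted p = 0.0325, limma). The difference was 1.14 to 1.47 when single libraries were left out. With tumour-free replicate 1 or 3 removed its adjusted p was 0.1 or 0.0915, and with tumour-bearing replicate 1, 2 or 3 removed it was 0.134, 0.0809 or 0.135. With tumour-free replicate 2 removed, the library that stands apart, it was 0.019. In sorted bulk samples more cells of a type and more RNA per cell cannot be told apart. Monocyte markers moved in the same direction: 8 of 8 were higher with tumour, 4 of them past the test, and their summed level was 13.65 to 15.13 in tumour-free and 15.34 to 15.56 in tumour-bearing samples. *Ccr2*, the chemokine receptor of inflammatory monocytes, differed by 2.57 (adjusted p = 0.00816, limma) and *Chil3* by 3.10 (adjusted p = 0.000869, limma). These 2 calls held in 5 and 6 of the 6 fits that left out a library. Dendritic cell markers, summed, were at 11.92 to 12.48 and 12.07 to 12.57, with 0 of 10 past the test in limma and 1 at an unadjusted p under 0.05. Neutrophil markers rose too, 4 of 8 past the test, with sums of at most 13.94 without and at least 14.92 with tumour. No marker of these 3 lists was listed at 0, and the part of these cells in the *Havcr2* result was not tested. KC markers were lower in 9 of 10 cases, 3 of them past the test, including the macrophage genes *Csf1r* (-0.94, adjusted p = 0.0344) and *Adgre1* (-0.93, adjusted p = 0.028), and their sums were 20.62 to 21.10 and 20.17 to 20.26. Each of the 3 KC marker calls held in 1 of the 6 fits that left out a library.

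**Figure D2:**
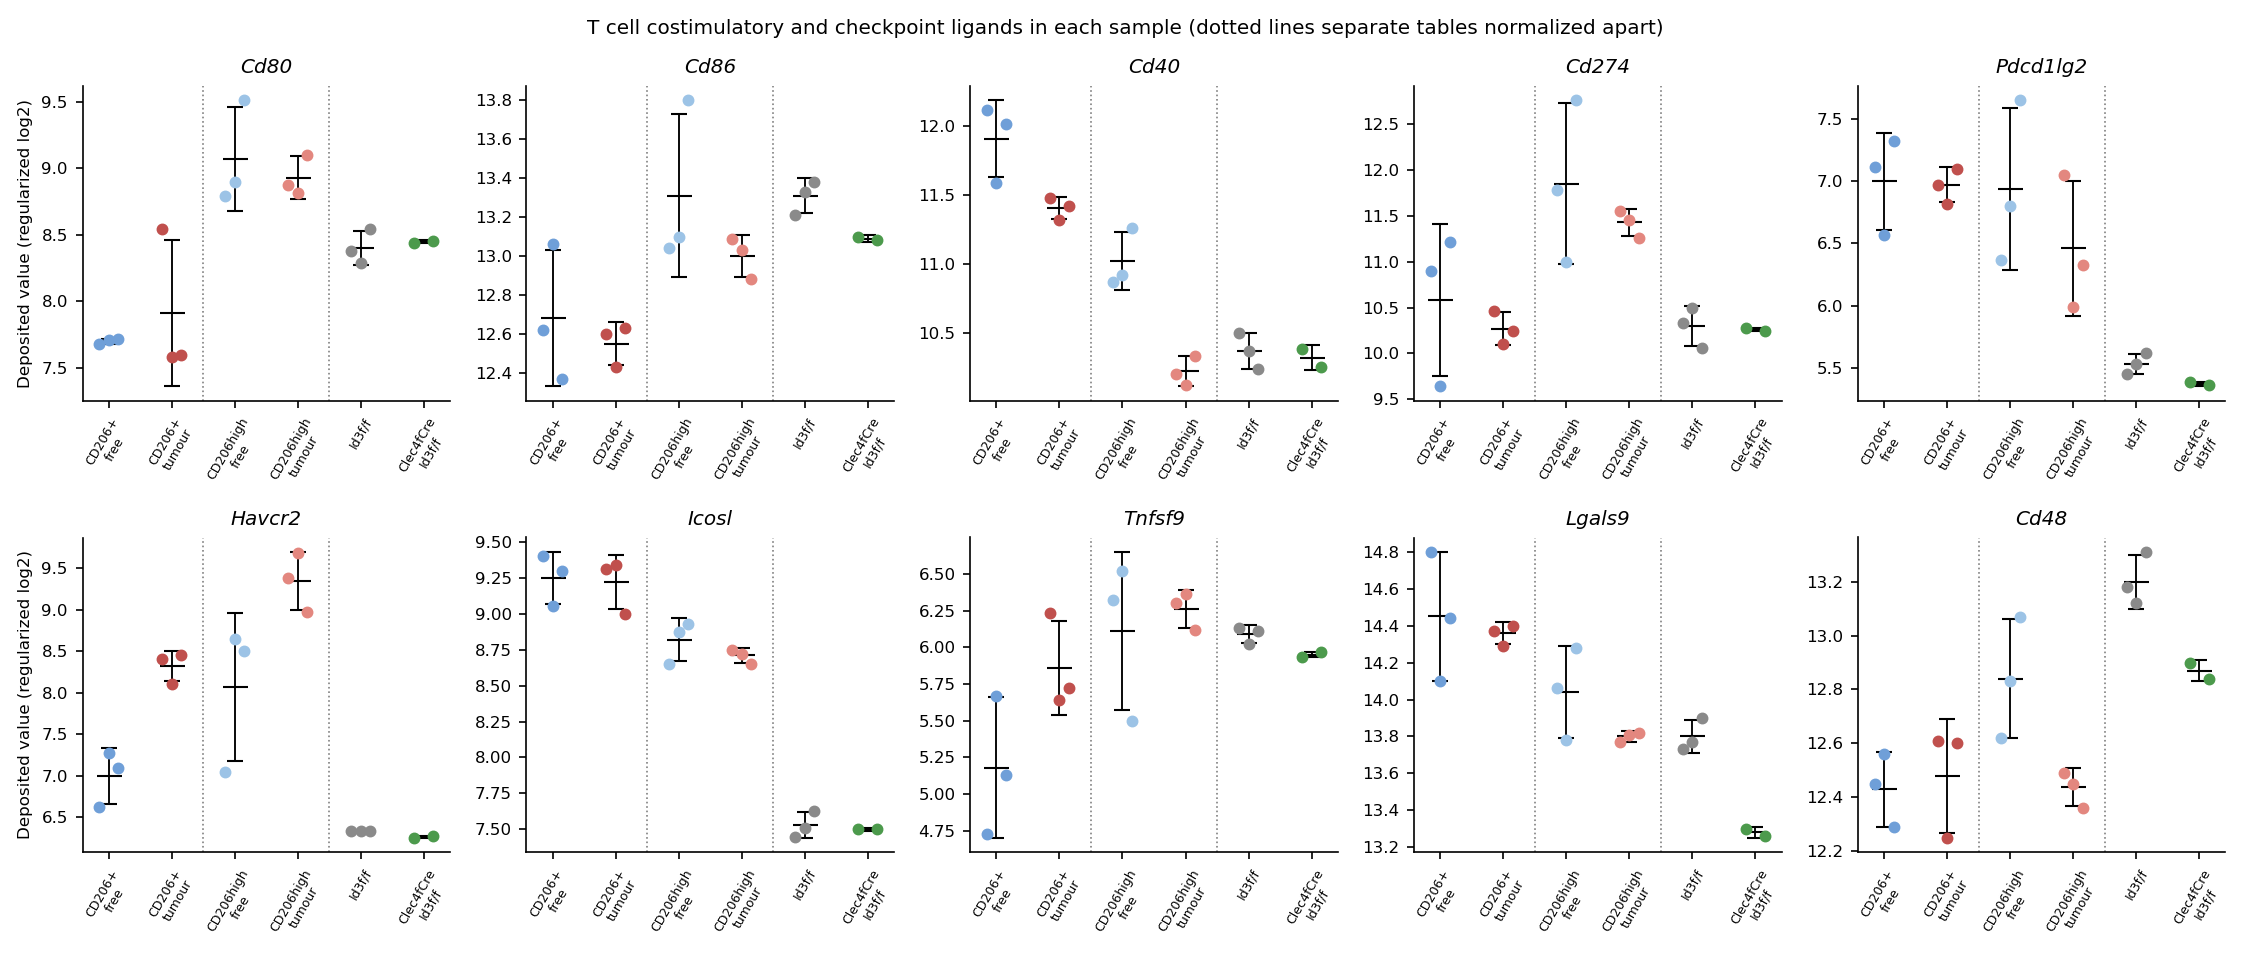
Regularized log2 value (y axis) of each gene in each sample (points), with the group mean and SD as black bars. The x axis gives the group, and dotted lines part the 3 tables, whose values are not on one scale. The *Havcr2* points of tumour-bearing TIM4+CD206+ KCs lie at 8.11 or above and those of tumour-free ones at 7.27 or below.

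*Cd40* encodes the receptor that licenses macrophages and dendritic cells when CD40 ligand on a helper T cell binds it. In TIM4+CD206+ KCs it was at 12.12, 11.59 and 12.02 without tumour and at 11.48, 11.32 and 11.42 with tumour. The groups did not overlap, which was also so for 23.4% of all genes tested, and for 10.5% in this direction and 12.9% in that of *Havcr2*. The log2 difference of -0.50 (95% interval -0.92 to -0.08) did not pass the test, with an adjusted p of 0.208 in limma. Without tumour-free replicate 2 it was -0.66 with an adjusted p of 0.0248, the only 1 of 12 alternatives in which it passed. With single libraries left out the difference ranged from -0.66 to -0.39.

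The other 8 genes did not pass in TIM4+CD206+ KCs and their groups overlapped. *Cd86* was at 12.68 ± 0.35 without and 12.55 ± 0.11 with tumour, and *Cd80* at 7.70 ± 0.02 and 7.91 ± 0.55 (SD, n = 3 each). The spread of *Cd80* came from tumour-bearing replicate 1, at 8.54, against 7.58 and 7.60 in the other two. *Cd274* spread most among the tumour-free samples, at 10.90, 9.64 and 11.22, and was at 10.46, 10.10 and 10.24 with tumour. Its log2 difference was -0.32 with an interval of -1.18 to 0.54, and -0.79 with an adjusted p of 0.0396 without tumour-free replicate 2. Dropping either of the other tumour-free libraries shrank the difference, to -0.16 for replicate 1 and to -0.00 for replicate 3. The size of the *Cd274* difference in this subset thus depended on which tumour-free libraries were kept. It passed in 1 of 12 alternatives, the one that drops the library that stands apart. *Pdcd1lg2* differed by -0.03 (95% interval -0.66 to 0.59) and *Icosl*, the ligand of the costimulatory receptor ICOS, by -0.04 (95% interval -0.51 to 0.43). *Tnfsf9*, which encodes the ligand of the costimulatory receptor 4-1BB, was the lowest gene of the set, at 4.73, 5.67 and 5.13 without and 6.23, 5.64 and 5.72 with tumour. It differed by 0.69 (95% interval 0.01 to 1.36, adjusted p = 0.279, limma). *Lgals9*, the most abundant, differed by -0.09 (95% interval -0.54 to 0.36), and *Cd48*, the ligand of CD244 and CD2, by 0.05 (95% interval -0.33 to 0.44). The intervals leave room for changes of up to about the size of the *Cd40* difference in these 2 abundant genes.

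In TIM4+CD206high KCs, 1 of the 10 genes passed the test, lower with tumour, against 7.23% of 14561 genes tested in either direction, 5.21% higher and 2.03% lower. The calls over all genes were 72% higher and fell to 64.5% higher with libraries centred on their median and 56.2% with quantile normalization. The median log2 difference over the 10 genes was -0.28, and over all genes tested 0.03. Centring each library on its median moved all differences of this table down by 0.16. Of the 10 differences, 8 were below 0, and the intervals of 6 of these 8 included 0. With both tumour-free libraries that stand apart left out, the median over the 10 genes was -0.05.

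*Cd40* was the gene that fell. It was at 10.87, 10.92 and 11.26 in tumour-free and at 10.20, 10.12 and 10.33 in tumour-bearing samples, without overlap, as for 30.7% of all genes and for 15.2% in this direction. The means were 11.02 ± 0.21 and 10.22 ± 0.11 (SD, n = 3 each), a log2 difference of -0.80 with a standard error of 0.18 and a 95% interval of -1.21 to -0.39, a level 1.74-fold lower (adjusted p = 0.0375, limma). It was -0.85 with tumour-free replicate 2 removed (adjusted p = 0.0173) and -0.68 with replicate 3 removed (adjusted p = 0.0229). Removing tumour-free replicate 1 gave an adjusted p of 0.0769, and removing tumour-bearing replicate 1, 2 or 3 gave 0.189, 0.197 or 0.127. A filter that asks for a mean of 50 counts gave 0.0504. CD40 is also abundant on B cells, and B cell markers were lower with tumour in both subsets. Among TIM4+CD206high KCs 7 of 7 were lower, 3 past the test, with a summed level of 12.41 to 12.81 without and 11.87 to 11.96 with tumour. In TIM4+CD206+ KCs 6 of 6 tested were lower, 4 past the test, with sums of 13.65 to 13.75 and 12.74 to 12.77. *Cd79a*, part of the B cell receptor, had a log2 difference of -1.08 in TIM4+CD206high KCs and of -1.18 in TIM4+CD206+ KCs (limma, adjusted p = 0.0115 and 0.00687). These calls held in 3 and 6 of the 6 fits that left out a library. No B cell marker was listed at 0, and the part of B cells in the *Cd40* result was not tested.

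*Havcr2* was at 7.05, 8.65 and 8.50 in tumour-free and at 9.38, 9.68 and 8.98 in tumour-bearing TIM4+CD206high KCs. The groups did not overlap, as for 15.6% of genes in this direction, and tumour-free replicate 1 lay far below the other two. The log2 difference of 1.28 (standard error 0.44, 95% interval 0.23 to 2.33) had an adjusted p of 0.158 in limma. It was 0.77 when tumour-free replicate 1 was removed (adjusted p = 0.217), 1.57 when replicate 2 was (adjusted p = 0.0433) and 1.50 when replicate 3 was (adjusted p = 0.138). With both libraries that stand apart left out it was 2.30 (adjusted p = 0.000501), and in that fit the lone tumour-free sample is assumed to vary like the tumour-bearing ones. Here too 8 of 8 monocyte markers were higher, 4 past the test, with *Chil3* at 2.68 (adjusted p = 0.0158, limma). The *Chil3* call held in 3 of the 6 fits that left out a library. The summed level of monocyte markers was 14.42 to 14.94 without and 15.24 to 15.45 with tumour. Neutrophil markers were summed at 12.44 to 13.58 and 13.88 to 14.52 and dendritic cell markers at 11.94 to 12.76 and 12.21 to 12.33, with 4 of 8 and 0 of 10 past the test in limma and 6 and 1 higher at an unadjusted p under 0.05. Of the KC markers 0 of 10 passed, 4 had an unadjusted p under 0.05, and the sums were 19.72 to 20.32 and 19.59 to 19.79. The log2 difference of *Havcr2* was thus 1.33 and 1.28 in the subsets and passed the test in TIM4+CD206+ KCs. Whether the subsets differ was not tested, since their tables were normalized separately.

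*Cd48* also did not overlap between the groups, at 12.62, 12.83 and 13.07 without and 12.49, 12.45 and 12.36 with tumour. Its log2 difference was -0.40 (95% interval -0.79 to -0.01, adjusted p = 0.225, limma), -0.29 with tumour-free replicate 3 removed and -0.19 with both libraries that stand apart left out (adjusted p = 0.15). *Cd274* again spread widely among tumour-free samples, at 11.78, 11.00 and 12.76, and was at 11.55, 11.46 and 11.26 with tumour. Its log2 difference of -0.42 (95% interval -1.39 to 0.54) became 0.03 without tumour-free replicate 3 and -0.85 without replicate 2. In both subsets the tumour-free SD of *Cd274*, 0.83 and 0.88, was several times the tumour-bearing SD, 0.18 and 0.15.

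The costimulatory pair did not pass in TIM4+CD206high KCs. *Cd86* was at 13.04, 13.10 and 13.80 without and 13.09, 13.03 and 12.88 with tumour, a difference of -0.31 (95% interval -0.85 to 0.22), which was -0.07 with tumour-free replicate 3 removed and -0.04 with both libraries that stand apart left out. *Cd80* was at 8.79, 8.90 and 9.51 and at 8.87, 8.81 and 9.10, a difference of -0.14 (95% interval -0.72 to 0.43), which was 0.13 with both left out. For both genes, and for *Cd40*, *Cd274*, *Pdcd1lg2*, *Icosl*, *Lgals9* and *Cd48*, the highest tumour-free value was that of replicate 3. *Pdcd1lg2* differed by -0.48 (95% interval -1.44 to 0.48), *Icosl* by -0.11 (95% interval -0.54 to 0.32) and *Tnfsf9* by 0.15 (95% interval -0.55 to 0.85), and with both left out these were 0.09, 0.06 and -0.06. *Lgals9* was at 14.04 ± 0.25 without and 13.80 ± 0.03 with tumour (SD, n = 3 each), a difference of -0.24 (95% interval -0.64 to 0.17). Its adjusted p was 0.449 in limma. With both libraries that stand apart left out, which leaves 1 tumour-free sample, its difference was -0.26.

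**Figure D3:**
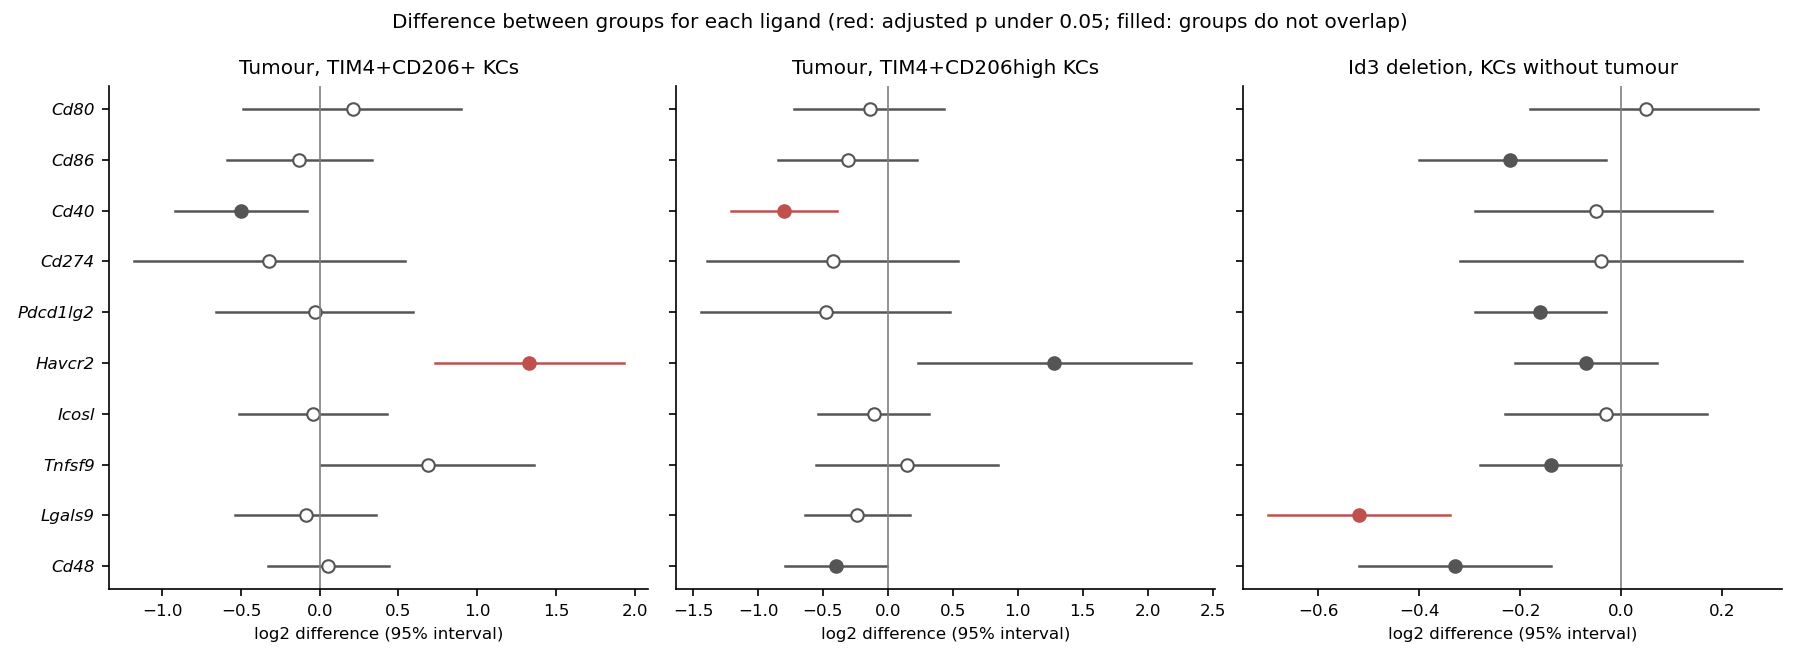
Log2 difference between groups (x axis, points) with its 95% interval (lines) for each gene (y axis) in the 3 comparisons, tumour-bearing minus tumour-free or *Clec4fCreId3f/f* minus *Id3f/f*. The x scales differ between panels. Red marks an adjusted p under 0.05, as for *Havcr2* at 1.33, *Cd40* at -0.80 and *Lgals9* at -0.52, and filled points mark groups that do not overlap.

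The genes around these ligands were compared in the same fits. Of 23 other ligands and inhibitory molecules seen by T cells, 15 were tested in TIM4+CD206+ KCs and 1 rose. It was *Sema4a*, which encodes a semaphorin that costimulates T cells, with a log2 difference of 0.99 (adjusted p = 0.0291). For TIM4+CD206high KCs 19 were tested, 2 rose and 1 fell. *Cd276*, the gene of the B7 family ligand B7-H3, was higher by 2.35 (adjusted p = 0.00101) and passed in each of the 6 fits that left out a library. *Tnfsf14*, the gene of LIGHT, was higher by 1.45 (adjusted p = 0.0391), and *Clec4g*, the gene of the sinusoidal lectin LSECtin, was lower by a difference of -0.90 (adjusted p = 0.024). Epithelial markers were far higher in the tumour-bearing samples of both subsets. Of the 8, 7 were tested and 7 rose in each, and their summed level was 10.68 to 11.16 without and 15.47 to 15.56 with tumour in TIM4+CD206high KCs, and 10.69 to 11.69 and 15.03 to 15.25 in TIM4+CD206+ KCs. The part of tumour RNA in the values of *Cd276* and of the 10 genes was not tested. Hepatocyte markers moved the other way, with 7 of 8 lower past the test in TIM4+CD206+ KCs (sums of 17.10 to 17.41 and 16.51 to 16.88) and 6 of 8 in TIM4+CD206high KCs (16.56 to 17.01 and 16.26 to 16.52). Sinusoidal endothelium also expresses *Clec4g*, and endothelial markers were lower in 6 and 7 of 8 cases, 0 and 1 past the test, and 3 and 5 had an unadjusted p under 0.05. Their sums in TIM4+CD206high KCs were 16.55 to 17.38 and 16.01 to 16.36.

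The receptors of these ligands are carried by lymphocytes, which the gate was to remove. In TIM4+CD206+ KCs 14 of 15 were tested and 1 fell, *Icos*, with a difference of -1.02 (adjusted p = 0.0237). All 15 were tested in TIM4+CD206high KCs and 1 rose, *Pdcd1*, the gene of PD-1, with 1.30 (adjusted p = 0.0179). T or NK cell markers, had 0 of 10 past the test in either subset in limma, while 10 of 10 and 9 of 10 were lower with tumour, 3 and 7 of them at an unadjusted p under 0.05. Their summed level was 11.79 to 12.78 without and 11.71 to 11.80 with tumour in TIM4+CD206+ KCs, and 11.71 to 11.84 and 11.09 to 11.16 in TIM4+CD206high KCs.

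Interferon-gamma is a main inducer of PD-L1, CD40 and MHC class II in macrophages. Of 13 genes of its axis tested in TIM4+CD206+ KCs, 11 were lower with tumour and 1 fell past the test, with a median difference of -0.65 beside 0.02 for all genes. That gene was *Cxcl10*, a chemokine that attracts T cells, with -1.55 (adjusted p = 0.0158). In TIM4+CD206high KCs 8 of 14 were lower and 2 fell, *Cxcl9* with -2.65 (adjusted p = 0.0254) and *Cxcl10* with -2.20 (adjusted p = 0.0425), and the median was -0.34. In both subsets 7 genes of this axis had an unadjusted p under 0.05, and in both all 7 were lower. CD40 signals through TRAF proteins to NF-kappaB. Of 16 genes of this pathway, 13 were lower in TIM4+CD206+ KCs, with a median of -0.32, and 1 fell, *Nfkbie*, which encodes an inhibitor of NF-kappaB, with -0.89 (adjusted p = 0.0476). In TIM4+CD206high KCs the median was 0.14 and 0 of 16 passed in limma, with 2 at an unadjusted p under 0.05. Of 7 genes that govern how long CD86, CD80 and PD-L1 stay at the surface, such as *Cmtm6* and the ubiquitin ligase gene *Marchf1*, 6 were tested in TIM4+CD206+ and 7 in TIM4+CD206high KCs, and 0 passed in limma, with 0 and 1 at an unadjusted p under 0.05. Of the genes named in these lists, *Cd276* kept its call in all 6 fits that left out a library, and *Pdcd1* in 4. *Clec4g* and *Cxcl9* kept theirs in 2 of the 6. *Sema4a*, *Tnfsf14*, *Icos*, *Nfkbie* and, in each subset, *Cxcl10* kept theirs in 1. With the tumour-free library of TIM4+CD206+ KCs that stands apart left out, 6 of 13 genes of the interferon-gamma axis were lower past the test and 0 higher, with a median of -0.89, and 6 of 10 KC markers were lower. Over all genes, that fit called 595 of 13233 lower and 427 higher, against 132 and 337 in the main fit. With both such libraries of TIM4+CD206high KCs left out, 1 tumour-free sample remained. The median difference was then -0.50 for the axis and 0.03 for the CD40 and NF-kappaB genes. It was 1.62 for monocyte, 2.33 for neutrophil and 0.27 for dendritic cell markers. For B cell, KC and endothelial markers it was -0.88, -0.43 and -1.17.

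**Figure D4:**
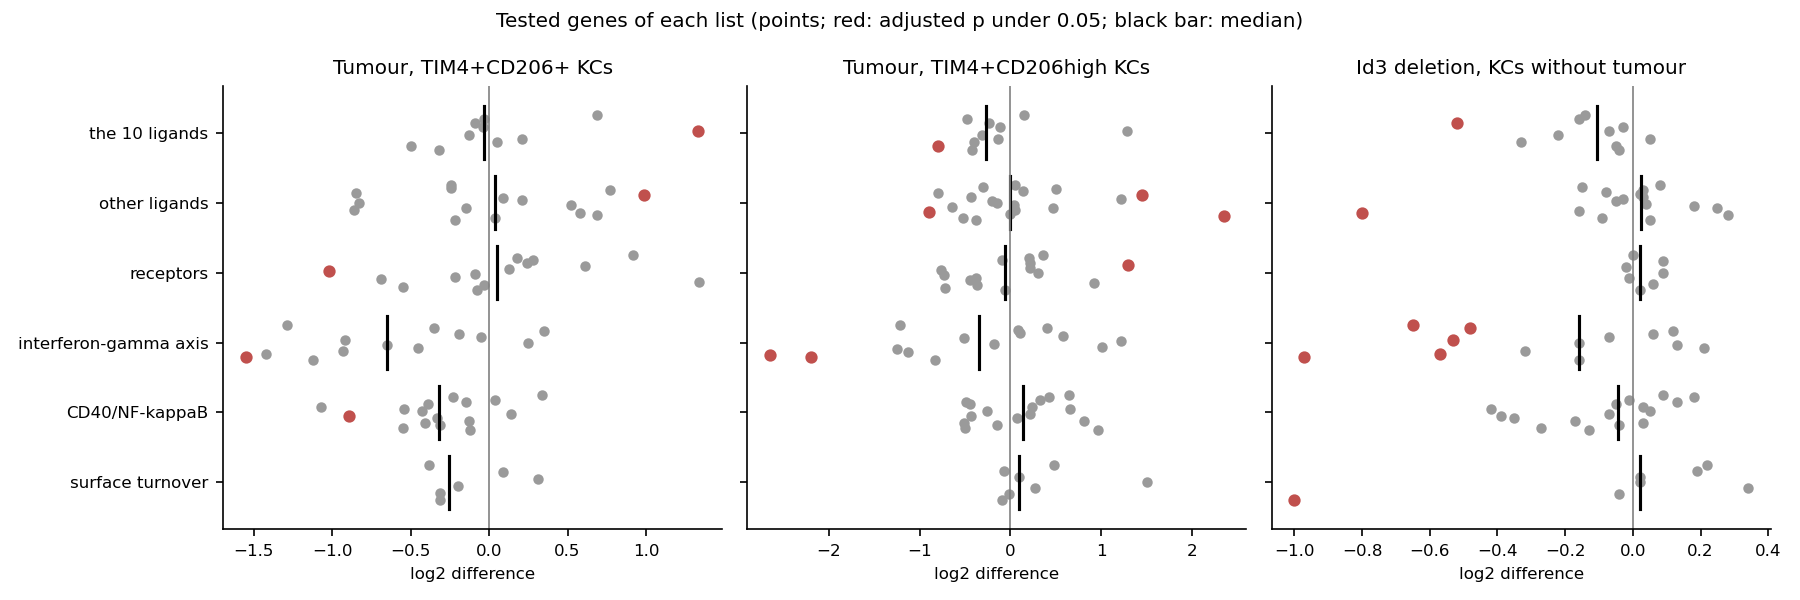
Log2 difference (x axis) of every tested gene (points) of the 10 genes described here and of 5 lists of related genes (y axis) in the 3 comparisons, with the median of each list as a black bar. The x scales differ between panels. Red marks an adjusted p under 0.05, and in the interferon-gamma axis 1, 2 and 5 genes are marked, all below 0.

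The second question was how these molecules differ between *Clec4fCreId3f/f* and *Id3f/f* KCs without tumour. Sex differs along with genotype here, and the part of each in the differences cannot be told apart. ID3 is an inhibitor that pairs with E proteins and keeps them from binding DNA at E-boxes, whose letters are CANNTG. After *Id3* deletion 1 of the 10 genes passed the test, lower in *Clec4fCreId3f/f* KCs, against 6.44% of 12833 genes tested in either direction, 3.08% higher and 3.37% lower. Of the calls over all genes 47.8% were higher, and 37.4% with libraries centred on their median. The median log2 difference over the 10 genes was -0.11, and over all genes 0.00. Of the 10 differences 9 were below 0. A set of 6 genes had groups that did not overlap, all lower in *Clec4fCreId3f/f* KCs, among a background of 41.9% of genes in either direction, 20.2% higher and 21.7% lower, with groups of 3 and 2 samples.

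*Lgals9* was the gene that fell. Galectin-9 is a lectin that binds TIM-3 and other glycoproteins on T cells. It was at 13.73, 13.77 and 13.90 in *Id3f/f* and at 13.30 and 13.26 in *Clec4fCreId3f/f* samples. Both deleted samples lay under all 3 controls. The means were 13.80 ± 0.09 (SD, n = 3) and 13.28 ± 0.03 (SD, n = 2), a log2 difference of -0.52 with a standard error of 0.08 and a 95% interval of -0.70 to -0.34, a level 1.43-fold lower (adjusted p = 0.00968, limma). The difference was -0.55 to -0.47 when single samples were left out. The adjusted p was 0.178 without *Clec4fCreId3f/f* replicate 1 and 0.177 without replicate 2. These fits hold 1 deleted sample, which is assumed to vary like the controls.

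*Cd48* came next, at 13.18, 13.12 and 13.31 in *Id3f/f* and 12.90 and 12.84 in *Clec4fCreId3f/f* samples, without overlap. Its log2 difference of -0.33 (95% interval -0.52 to -0.14) had an adjusted p of 0.0519 in limma, just above the threshold. Without *Id3f/f* replicate 1, 2 or 3 the adjusted p was 0.115, 0.0703 or 0.0196. With quantile normalization it was 0.116, and it fell under the threshold in 4 of 11 alternatives. The difference was -0.36 and -0.30 without *Clec4fCreId3f/f* replicates 1 and 2. *Cd86* was at 13.21, 13.33 and 13.38 and at 13.10 and 13.08, a difference of -0.22 (95% interval -0.40 to -0.03, adjusted p = 0.149, limma). The 3 genes with the lowest differences were thus the 3 with the highest levels per kb. Because the scale shrinks genes with few reads, sizes cannot be ranked between abundant and low genes.

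*Pdcd1lg2* was at 5.45, 5.53 and 5.62 and at 5.39 and 5.36, *Tnfsf9* at 6.13, 6.02 and 6.11 and at 5.93 and 5.97, and *Havcr2* at 6.34, 6.33 and 6.33 and at 6.25 and 6.27. No pair of groups overlapped, and the differences were -0.16, -0.14 and -0.07 (adjusted p = 0.14, 0.224 and 0.535, limma). *Cd274*, *Cd40*, *Icosl* and *Cd80* overlapped between the genotypes. Their differences were -0.04 (95% interval -0.32 to 0.24), -0.05 (95% interval -0.29 to 0.18), -0.03 (95% interval -0.23 to 0.17) and 0.05 (95% interval -0.18 to 0.27). The RNA of *Cd274* and *Cd40* was thus measured with intervals that reach to about 0.3 on the log2 scale.

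To show where E-boxes lie, the 250 bases before a RefSeq start site (GRCm38.p6) are given for the genes with the lowest differences after *Id3* deletion and for the gene that rose with tumour, 5′ to 3′ on the strand of the gene, with CANNTG in capitals.
*Lgals9*, chr11:78984925-78985174, minus strand: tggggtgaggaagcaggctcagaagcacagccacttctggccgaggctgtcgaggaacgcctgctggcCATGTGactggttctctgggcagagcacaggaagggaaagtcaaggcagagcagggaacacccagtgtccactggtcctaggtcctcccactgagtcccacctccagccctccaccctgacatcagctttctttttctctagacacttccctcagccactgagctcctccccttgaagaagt
*Cd48*, chr1:171681742-171681991, plus strand: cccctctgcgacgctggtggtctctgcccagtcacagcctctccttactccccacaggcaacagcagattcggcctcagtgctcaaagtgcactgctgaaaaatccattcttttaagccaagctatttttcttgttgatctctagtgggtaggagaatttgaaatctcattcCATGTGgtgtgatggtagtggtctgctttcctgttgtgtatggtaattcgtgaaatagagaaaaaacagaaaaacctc
*Havcr2*, chr11:46454681-46454930, plus strand: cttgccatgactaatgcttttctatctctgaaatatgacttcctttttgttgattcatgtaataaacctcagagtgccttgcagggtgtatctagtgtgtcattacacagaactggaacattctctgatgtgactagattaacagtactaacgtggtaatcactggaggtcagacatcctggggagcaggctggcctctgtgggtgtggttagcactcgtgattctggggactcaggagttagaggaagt
*Lgals9* and *Cd48* each hold 1 match, CATGTG, which begins 182 and 78 bases before the start site used, and *Havcr2* holds none. The *Cd48* window lies inside the annotated span of the gene (chr1:171681245-171705258), so that its start site is not the outermost one. This also holds for the windows of *Cd80* and *Cd274*, which are not shown. Windows were at hand for 7 of the 10 genes, and 6 of these 7 held an E-box, as did 66.2% of 32851 windows of the same length. The core of the interferon motif ISRE, GAAA repeated after any pair of bases, was found on either strand in 2.98% of all windows and in *Lgals9* only among the 7, as TTTCTTTTTC 55 bases before the start site.

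In the *Id3* comparison 5 of 13 tested genes of the interferon-gamma axis fell and 0 rose, with a median of -0.16 beside 0.00 for all genes. Among them were *Cxcl10* (-0.97, adjusted p = 0.00266), *Cxcl9* (-0.57, adjusted p = 0.014), and also *Irf1* (-0.53, adjusted p = 0.0167) and *Socs1* (-0.48, adjusted p = 0.0237), which were named after their values were seen. Of 7 genes of surface turnover, 1 fell. It was *Cd83*, whose product keeps CD86 and MHC class II at the surface by opposing the ubiquitin ligase MARCH1, with -1.0 (adjusted p = 0.000973). Of 16 other ligands tested 1 fell, *Clec4g* (-0.80, adjusted p = 0.0179), and of 7 receptors and 16 genes of CD40 and NF-kappaB signalling 0 passed in limma, with 0 and 4 at an unadjusted p under 0.05. Of these genes, *Cd83* kept its call in 4 of the 5 fits that left out a sample. *Cxcl10* and *Clec4g* kept theirs in 3, *Cxcl9* in 2, and *Irf1* and *Socs1* in 1. B cell markers were summed at 11.03 to 11.15 and 11.14 to 11.18, and dendritic cell markers at 11.14 to 11.33 and 11.25 in both deleted samples, with 0 past the test in either list in limma and 0 and 2 at an unadjusted p under 0.05. Monocyte markers were summed at 13.54 to 13.81 and 12.70 to 12.82, and 1 of 6 tested fell, *Plac8* (-0.95, adjusted p = 0.00151), with *Vcan* listed at 0. Neutrophil, T or NK cell and epithelial markers had 0 past the test and 0 at an unadjusted p under 0.05, with sums of 10.14 to 10.48, 9.46 to 9.58 and 8.51 to 8.66 over all 5 samples and *Ly6g* and *Cldn4* listed at 0. Endothelial markers had 1 of 8 higher, *Pecam1* (0.58, adjusted p = 0.018), and hepatocyte markers 1 of 8 lower, *Fabp1* (-0.54, adjusted p = 0.0432), and each of these calls held in 1 of the 5 fits that left out a sample. KC markers were summed at 19.59 to 19.67 and 19.65 to 19.68, with 3 of 10 higher and 2 lower past the test, *Clec4f* itself among the lower (-1.52, adjusted p = 1.8e-06), whose regulatory sequence drives Cre. The part of these markers in the values of the 10 genes was not tested.

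For the 3 genes that passed a test, the genes with the most similar course over all 17 samples were sought among 12222 genes tested in every table, by the root mean square difference of values centred on each table. Closest to *Cd40* was *H2-M3*, a nonclassical MHC class I gene, at 0.0766, followed by *Gm12216* at 0.103 and *Tmem106a* at 0.11. Closest to *Havcr2* was *Clec4e*, the gene of the activating lectin Mincle, at 0.243, followed by *AU022793* at 0.27 and *AI427809* at 0.278. Closest to *Lgals9* were *Dmac1* at 0.0744, *Npc2*, which exports cholesterol from lysosomes, at 0.0881 and *Ormdl2* at 0.0957. For comparison, *Cd40*, *Havcr2* and *Lgals9* themselves varied around their table means by 0.312, 0.652 and 0.22.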

How the data were processed

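Sorted KCs were lysed and cDNA was made with a SMART-Seq kit, and per the submitters' processing notes reads were aligned with STAR 2.7.10a to mm10 and counted with HTSeq. The deposited values are log2 values per gene, which the authors made from these counts with the regularized transformation of DESeq2, separately for each of the 3 tables. The column names give another unit, but the values are on a log2 scale. No raw counts were used here, so that depth is unknown and no counting interval is given.

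Groups came from the sample labels, and 0 columns were left unmapped. Each comparison was fitted within its table with limma 3.58.1 in R 4.3.3 (mean-variance trend, Benjamini-Hochberg adjustment over all genes tested, threshold 0.05). A gene was tested where its value reached log2 of 10 in as many samples as the smaller group holds. Intervals are 95% intervals of limma. Levels per kb used the length of a RefSeq transcript. Scripts were tested on simulated data. Figures were drawn with matplotlib 3.10.9 in Python 3.11.15.

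All 10 genes were named in every comparison, and of the other lists at most 3 genes per list and comparison, those with the largest difference past the threshold. These genes and the 14 lists (152 of 153 list genes found) were chosen with earlier results of these data known. In TIM4+CD206+ KCs the deviations of same-numbered samples from their group means correlated across genes at 0.35, 0.56 and 0.15 for replicates 1, 2 and 3. Tumour-free replicate 1 also correlated with tumour-bearing replicate 3 at 0.30, and tumour-free replicate 3 with tumour-bearing replicate 1 at 0.16. The other pairs of unlike number were at -0.53 to -0.25. Whether the numbers pair the samples is therefore not settled, and the main fit did not use them. The fit with the replicate number as block, other filters, centring, quantile normalization, no trend and the removal of single libraries were alternatives. The values of 1 list gene are not reported here.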

Additional observations from a re-analysis of the deposited data

How the results depend on the processing

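Over the 10 genes and all alternatives, 309 of 358 values kept their direction and their side of the threshold, 13 lost the call, 9 gained it and 27 changed sign. The *Havcr2*, *Cd40* and *Lgals9* differences that passed the test kept their sign in every alternative run. The regularized scale and groups of 2 or 3 samples limit what can be seen in low genes such as *Tnfsf9* and *Pdcd1lg2*. The causes of the changes below were not tested.

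With single libraries left out, the number of genes past the threshold ranged from 231 to 1022 in TIM4+CD206+ KCs, from 579 to 3634 in TIM4+CD206high KCs and from 17 to 1850 in the *Id3* comparison, and of the 10 genes described from 0 to 3, 0 to 2 and 0 to 2. The highest counts came without tumour-free replicate 2 in each subset and without *Id3f/f* replicate 3, and the lowest in the *Id3* comparison without *Clec4fCreId3f/f* replicate 1. A fit left with 1 sample in a group assumes that it varies like the other group.

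With the replicate number as block, 1026 instead of 469 genes passed in TIM4+CD206+ KCs, 909 instead of 1053 in TIM4+CD206high KCs and 2089 instead of 827 in the *Id3* comparison, and of the 10 genes 1, 0 and 2. In the last 2 tables samples share only a number, with correlations of -0.13 to -0.05 and -0.10 to -0.07. The block changed no other call than these, the *Cd40* call in TIM4+CD206high KCs (adjusted p = 0.097) and the *Cd48* value in the *Id3* comparison (adjusted p = 0.0235). It moved *Icosl* there to 0.02.

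A filter on a mean of 50 counts left 600 genes and 0 of the 10 past the threshold in TIM4+CD206high KCs and 2 of the 10 in the *Id3* comparison, where *Cd48* had an adjusted p of 0.0366. It gave no value for *Tnfsf9* in TIM4+CD206+ KCs and for *Pdcd1lg2* in the *Id3* comparison. Without a filter 477 genes passed in the *Id3* comparison. Centring on the median gave 2 of the 10 there (*Cd48* adjusted p = 0.0383), turned *Cd48* to -0.02 in TIM4+CD206+ KCs and *Tnfsf9* to -0.01 in TIM4+CD206high KCs, where quantile normalization gave -0.26.

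Leaving out both tumour-free TIM4+CD206high libraries that stand apart was chosen after seeing the data. It gave 5401 genes and 3 of the 10 past the threshold, with *Cd80* at 0.13, *Pdcd1lg2* at 0.09, *Icosl* at 0.06 and *Tnfsf9* at -0.06.

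Values that changed sign with single libraries left out ranged, in TIM4+CD206+ KCs, from -0.11 to 0.37 for *Cd80*, -0.29 to 0.06 for *Cd86*, -0.25 to 0.13 for *Pdcd1lg2*, -0.14 to 0.07 for *Icosl*, -0.26 to 0.09 for *Lgals9* and -0.02 to 0.17 for *Cd48*. In TIM4+CD206high KCs they ranged from -0.28 to 0.08 for *Cd80*, -0.85 to 0.03 for *Cd274* and -0.16 to 0.35 for *Tnfsf9*. In the *Id3* comparison they ranged from -0.01 to 0.12 for *Cd80*, -0.12 to 0.01 for *Cd40*, -0.15 to 0.06 for *Cd274* and -0.07 to 0.02 for *Icosl*.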
